A study of Mus musculus with 12 samples.

Results

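A set of 7 genes of the vascular endothelial growth factor (VEGF) system were followed in tumourspheres of 2 metastatic mouse mammary cancer lines and of the lines derived from them by Nfib knockout (KO). They were the ligand genes Vegfa, Vegfb and Vegfc, the receptor tyrosine kinase genes Kdr and Flt1, and the co-receptor genes Nrp1 and Nrp2. They were chosen by name as VEGF ligands and receptors, and all 7 were among the 18278 genes with deposited counts. RNA-seq counts were available for 12 libraries in 4 groups of 3: the parental lines LM1 and LM9, and the knockout derived from each, LM1 Nfib KO and LM9 Nfib KO. All cells were grown for 6 days as tumourspheres, which are clusters formed by dissociated cells in non-adherent plates, in serum-free medium containing EGF and basic FGF. LM1 and LM9 were isolated from lungs of NOD/SCID mice, a strain without functional T and B cells, that carried tumours of LB-mHR1 cells. LB-mHR1 is a non-metastatic line from a mammary tumour of a transgenic mouse that expressed the PIK3CA H1047R mutant under the CAG promoter. The cells injected also carried a doxycycline-inducible piggyBac transposon, so the parental and the KO lines all shared the PIK3CA mutant and the transposon background. The KO lines were pools of single-cell clones edited with CRISPR-Cas9 guides against Nfib, so each KO group represents 1 pool of clones, and whether the replicates were separate cultures is not stated in the sources used here. The comparison asks how these genes differ between the parental and the KO tumourspheres in each line, and between the lines.

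VEGF ligands are secreted dimers that drive the growth and permeability of blood and lymphatic vessels. VEGFA binds KDR, the main signalling receptor of blood vessel endothelium, and FLT1, which binds the ligand tightly but is a weak kinase and often acts as a decoy. VEGFB binds FLT1, and processed VEGFC binds FLT4 and KDR. The neuropilins NRP1 and NRP2 have no kinase activity, present VEGF to the kinases, and also bind class 3 semaphorins, which are guidance factors. Carcinoma cells are a well-known source of VEGFA, and tumour cells can express neuropilins as well.

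Some features of the whole series touch the results. LM9 replicate 1 stood apart from its own group. On log2 CPM (counts-per-million, scaled with TMM factors), Pearson's r across genes was 0.991 to 0.992 with each LM1 library but 0.963 to 0.965 with the other LM9 replicates, and its counts lay nearer to those of the LM1 libraries (chi-square per gene 2.19 to 5.10) than LM1 libraries did to each other (5.11 to 7.40). Its counts thus went against its label. Values of LM9 and averages over both lines include it. Whether it is an LM9 library as labelled was not settled by the counts, and every LM9 mean, SD and share below carries that doubt. The change of each of the 7 genes in LM9 is also given without it, as are other values where stated. The 2 KO groups differed from each other about as little as their own replicates did, with a chi-square per gene of 1.61 to 5.49 between them and 1.44 to 4.06 within them. Parental and KO libraries lay far apart (r 0.685 to 0.701, chi-square per gene 756 to 898). The counts thus did not separate the KO groups by line, and whether they are separate derivatives of LM1 and LM9, as labelled, was not settled by them. Each KO change within a line, and their average, carries that doubt. The level of Nfib mRNA did not fall in either group labelled KO. It had 196, 217 and 241 CPM in LM1 and 239, 238 and 228 CPM in LM1 Nfib KO (log2 fold change 0.11, SE 0.16, adjusted p = 0.533), and 210, 120 and 133 CPM in LM9 and 227, 247 and 246 CPM in LM9 Nfib KO (0.68, SE 0.17, adjusted p = 0.00260, or 0.93 without LM9 replicate 1). A small CRISPR-Cas9 edit need not lower the mRNA, so these counts gave no check of the labels, and KO below means the libraries labelled Nfib KO. Library totals ran from 29249075 to 37162594 counts.

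Most genes differed between parental and KO libraries, so a call by itself says little about the 7 genes. In LM1 all 7 passed the test (limma-voom, Benjamini-Hochberg adjusted p under 0.05), 2 higher and 5 lower in the KO, where 81.2% of all 18176 tested genes passed, 43.1% higher and 38.1% lower. In LM9, 6 of the 7 passed, 2 higher and 4 lower, where 82.3% of all genes passed, 44.3% higher and 38.0% lower. Averaged over both lines all 7 passed, 2 higher and 5 lower, where 86.8% of all genes passed, 46.3% higher and 40.5% lower. The sizes and directions are given gene by gene. The share of all genes whose parental and KO libraries do not overlap was not counted. Where non-overlap is given below, it therefore does not set the 7 genes apart from other genes. The median log2 fold change of the 7 genes was -1.54 in LM1 and -0.75 in LM9, while the median of all genes was 0.08 and 0.13. Without LM9 replicate 1 the LM9 median was -0.48 for the 7 genes and 0.16 for all genes, and the averaged median of the 7 genes went from -1.30 to -1.003.

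**Figure D1:**
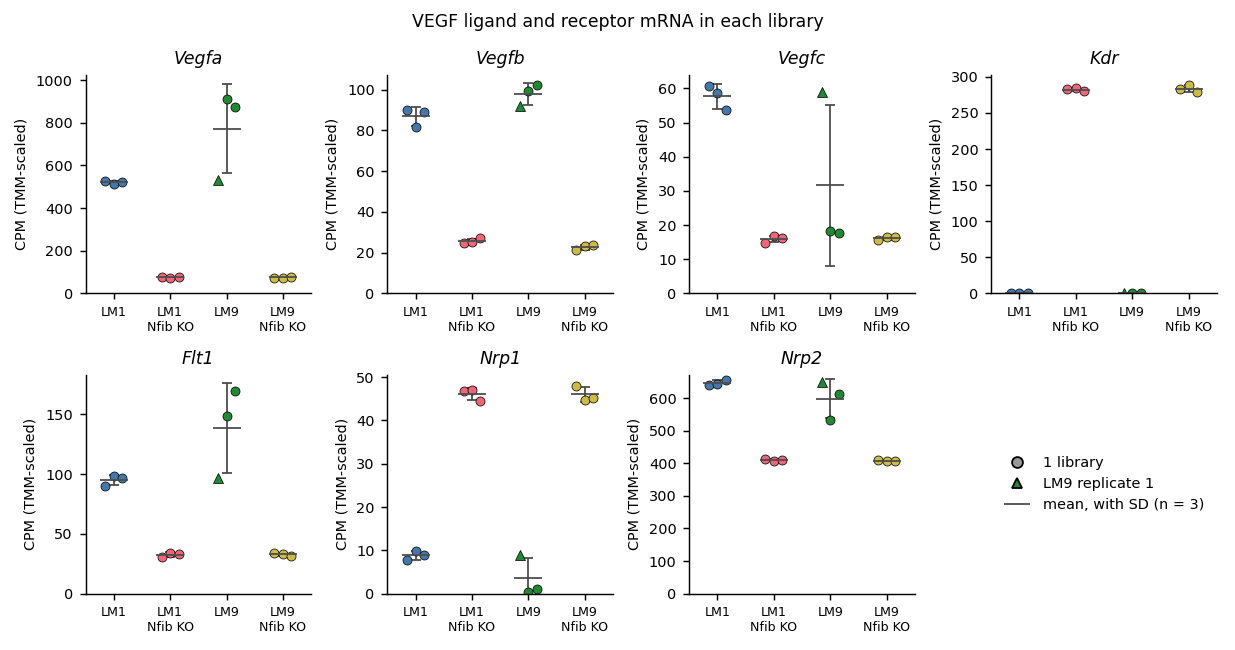
Expression of the 7 VEGF ligand and receptor genes in each library, in TMM-scaled CPM on linear axes that start at 0; each point is 1 library, the triangle is LM9 replicate 1, and the horizontal bar with whiskers is the mean with its SD (n = 3). Vegfa, Vegfb, Flt1 and Nrp2 were lower in every KO library than in every parental library, Kdr and Nrp1 were higher, and the LM9 triangle lay beside the LM1 points for Vegfa, Vegfc, Flt1 and Nrp1. The share of all genes that separated in this way was not counted.

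The promoters of Vegfa, the ligand gene with the largest change in both lines, and of the kinase receptor genes Kdr and Flt1, which moved in opposite directions, are shown first. Whether these sequences bear on the changes was not tested. They are the 250 bases before the RefSeq start site in GRCm38.p6, written 5′ to 3′ on the gene's own strand, and capitals mark GCGTG or its reverse complement CACGC, a core letter sequence that hypoxia-inducible factors can bind.
Vegfa (chr17:46032378-46032627, minus strand): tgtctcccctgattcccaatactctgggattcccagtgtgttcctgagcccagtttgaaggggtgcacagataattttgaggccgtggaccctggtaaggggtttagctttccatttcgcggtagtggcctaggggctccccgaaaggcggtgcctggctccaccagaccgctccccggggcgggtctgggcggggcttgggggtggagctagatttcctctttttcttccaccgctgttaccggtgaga
Kdr (chr5:75978456-75978705, minus strand): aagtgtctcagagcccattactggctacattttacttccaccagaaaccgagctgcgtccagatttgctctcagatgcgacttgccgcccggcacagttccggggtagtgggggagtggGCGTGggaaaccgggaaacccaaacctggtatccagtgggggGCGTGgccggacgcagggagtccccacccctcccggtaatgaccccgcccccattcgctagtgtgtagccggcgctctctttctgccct
Flt1 (chr5:147726012-147726261, minus strand): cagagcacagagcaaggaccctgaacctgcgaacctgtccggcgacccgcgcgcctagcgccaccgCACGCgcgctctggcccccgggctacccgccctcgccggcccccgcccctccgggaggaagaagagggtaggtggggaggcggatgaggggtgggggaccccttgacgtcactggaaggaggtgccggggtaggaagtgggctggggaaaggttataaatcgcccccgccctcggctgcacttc
The Kdr window held GCGTG at positions -131 and -89 from the start site and the Flt1 window held it once on the opposite strand at -184, while the Vegfa window held none. GCGTG also occurred in the windows of Vegfb, Nrp1 and Nrp2 and not in that of Vegfc. It was present in 28.2% of all 32851 promoters in the table. The related ACGTG and the core TTGGC that NFI proteins such as NFIB recognise were in none of the 7 windows, against 16.6% and 41.5% of all promoters, and the palindromic NFI site made of a pair of such cores was in none either, against 0.0365%. Motifs were searched on both strands, and absence from 250 bases says nothing about binding elsewhere. The GC content of the 7 windows was 59.2% to 76.4%, against a median of 52.4% for all promoters.

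Vegfa, on chromosome 17 at 46016993 to 46032369 of the minus strand (mm10), encodes the main angiogenic ligand. It stood at 526, 514 and 524 CPM in the 3 LM1 libraries and at 75.2, 73.8 and 75.0 CPM in LM1 Nfib KO. In LM9 it stood at 532, 911 and 873 CPM, and in LM9 Nfib KO at 74.0, 74.2 and 75.1 CPM. Each parental library was thus far above every KO library, both KO groups lay at the same level, and LM9 replicate 1 lay at the level of LM1. The log2 fold change was -2.80 in LM1 (SE 0.16, adjusted p = 1.63e-08), a 6.98-fold lower level in the KO. In LM9 it was -3.33 (SE 0.16, adjusted p = 3.74e-09), and -3.58 without LM9 replicate 1 (SE 0.03, adjusted p = 1.55e-21). Per kilobase of exon, Vegfa ranked 569th of 18268 genes in LM1 and 3675th in LM1 Nfib KO.

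Vegfb, on chromosome 19 at 6982473 to 6987651 of the minus strand, encodes a ligand of FLT1 that is linked more to fatty acid uptake and cell survival than to vessel sprouting. Its values were 90.2, 81.7 and 88.8 CPM in LM1 and 24.6, 25.2 and 27.1 CPM in LM1 Nfib KO. In LM9 they were 92.1, 99.3 and 102 CPM, and in LM9 Nfib KO 21.1, 23.1 and 23.6 CPM. The parental and KO libraries did not overlap, and the replicates of each group lay close together. Vegfb fell by 1.76 on the log2 scale in LM1 (SE 0.07, adjusted p = 1.06e-09) and by 2.11 in LM9 (SE 0.07, adjusted p = 2.77e-10), or by 2.15 without LM9 replicate 1.

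Vegfc, on chromosome 8 at 54077606 to 54187096 of the plus strand, encodes the ligand best known for lymphatic growth. It had 60.8, 58.7 and 53.6 CPM in LM1 and 14.8, 16.8 and 16.1 CPM in LM1 Nfib KO. In LM9 it had 58.8, 18.2 and 17.8 CPM, and in LM9 Nfib KO 15.7, 16.5 and 16.4 CPM. The high LM9 value belonged to replicate 1 and equalled the LM1 level, while the other two LM9 libraries lay just above the KO range. The log2 fold change was -1.86 in LM1 (SE 0.34, adjusted p = 0.000321). In LM9 it was -0.75 and did not pass (SE 0.36, adjusted p = 0.0726), and without LM9 replicate 1 it was -0.15 (95% interval -0.32 to 0.02, adjusted p = 0.0878). The edgeR quasi-likelihood test (-0.97, adjusted p = 0.0293) and DESeq2 (-0.96, adjusted p = 0.0121) did call it on all 12 libraries, as did limma-voom when LM9 replicate 2 or 3 was left out (adjusted p = 0.0253 and 0.0228). In the 2 LM9 libraries that resembled each other, Vegfc was already near the KO level, which was not so for Vegfa or Vegfb.

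The 2 remaining ligand genes of the family that were analysed, which were not among the 7, moved unequally. Pgf, placental growth factor, an FLT1 ligand, had 60.3 to 64.4 CPM in LM1 and 11.2 to 11.9 CPM in LM1 Nfib KO (log2 fold change -2.41, SE 0.11, adjusted p = 1.94e-09). In LM9 it had 60.5 to 79.8 CPM and in LM9 Nfib KO 10.7 to 11.8 CPM (-2.68, SE 0.11, adjusted p = 8.56e-10), or -2.80 without LM9 replicate 1. Vegfd, a second lymphatic ligand, stayed at 0.429 to 1.56 CPM in all 12 libraries. Its log2 fold change was 0.91 in LM1 (SE 0.30, adjusted p = 0.0166) and -0.28 in LM9 (SE 0.32, adjusted p = 0.418, or -0.21 without LM9 replicate 1), and the LM1 call did not hold without LM1 replicate 2 (adjusted p = 0.0938) or LM1 Nfib KO replicate 1 (adjusted p = 0.0581). Flt4, the VEGFC receptor gene, was looked up and was not among the 18278 genes with counts.

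Levels of genes of unequal length can be added only per length, so the ligands were summed as CPM per kilobase of exon (GENCODE M21 exon union). The summed level of Vegfa, Vegfb, Vegfc, Vegfd and Pgf was 221 ± 5.29 (SD, n = 3) in LM1 and 279 ± 45.5 in LM9, against 44.4 ± 1.03 and 42.2 ± 1.26 in their KO groups. The LM9 sum was 305 (n = 2) without replicate 1, which had 227. Vegfa was the largest part in each group. It made up 55.1% ± 0.746 of the sum in LM1 and 39.2% ± 1.01 in LM1 Nfib KO, a difference of -15.8 percentage points. In LM9 it made up 63.7% ± 7.79, and in LM9 Nfib KO 41.2% ± 0.943, a difference of -22.5 points. Its shares in the 3 LM9 libraries were 54.7%, 69.0% and 67.3%, and the difference was -27.0 points without replicate 1. Both differences had an exact two-sided permutation p of 0.1, the smallest that 3 libraries against 3 can give. The share of Vegfb was 24.5% and 22.2% in LM1 and LM9, and 35.9% and 33.3% in their KO groups. The LM9 share of Vegfb was 20.6% without replicate 1. The share of Pgf lay between 8.90% and 9.62% in the 4 group means, and at 8.75% in LM9 without that library.

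**Figure D2:**
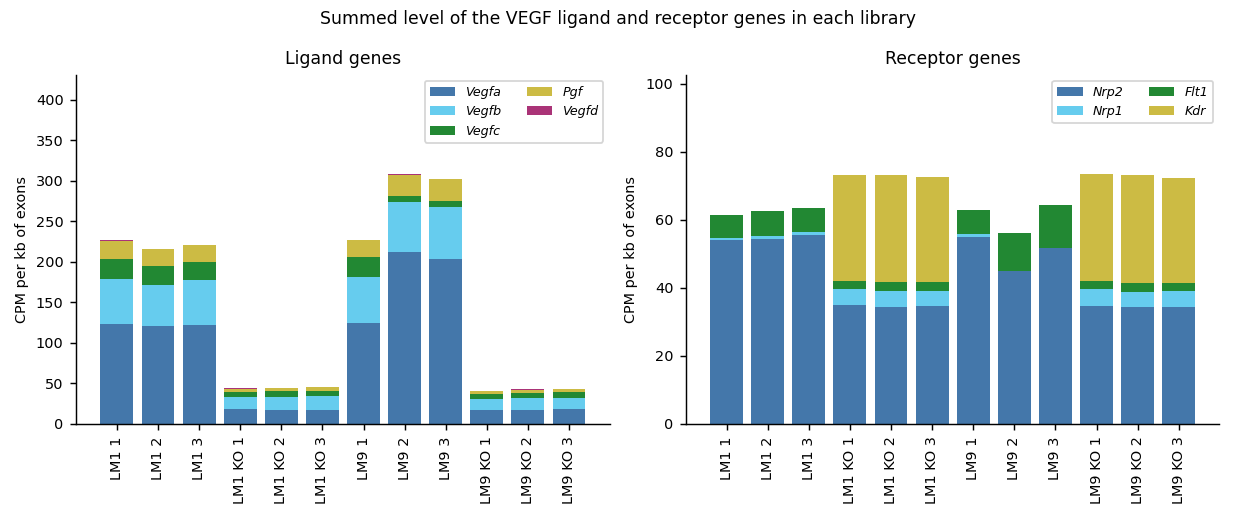
Summed level of the VEGF ligand genes (left) and receptor genes (right) in each library, in CPM per kilobase of exon; each bar is 1 library and its colours are the genes. The ligand bars averaged 221 and 279 in LM1 and LM9 (305 without LM9 replicate 1) and 44.4 and 42.2 in their KO groups, whereas the receptor bars averaged 62.5 and 61.1 against 73.0 in each KO group, with Kdr visible in KO libraries and at no more than 2 counts in parental ones.

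Kdr, on chromosome 5 at 75932827 to 75978458 of the minus strand, encodes the main signalling receptor for VEGFA. It had 0, 1 and 2 counts in the LM1 libraries and 1, 0 and 0 counts in the LM9 libraries. In LM1 Nfib KO it had 283, 284 and 280 CPM (10595 to 11246 counts), and in LM9 Nfib KO 284, 289 and 279 CPM. Parental libraries were thus at or under the floor of 3 counts while Kdr was among the higher-expressed genes in KO libraries, ranking 2050th and 2019th of 18268 genes per kilobase in the 2 groups. The ratio of pooled counts in LM1 Nfib KO to LM1 was 8332 (exact 95% counting interval 2851 to 40403, from 3 parental counts), and in LM9 Nfib KO to LM9 it was 22674 (4069 to 895613, from 1 parental count). Without LM9 replicate 1 no parental count was left in LM9, and the level was at least 4753-fold higher in the KO against a floor of 3 counts over the group. These intervals cover counting error only. Both differences passed the test (adjusted p = 1.52e-10 in LM1 and 1.13e-10 in LM9, or 2.34e-13 in LM9 without replicate 1).

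Flt1, on chromosome 5 at 147561604 to 147726011 of the minus strand, encodes the second VEGFA receptor, which also binds VEGFB and PGF. It went the opposite way to Kdr. Its values were 89.9, 98.2 and 96.6 CPM in LM1 and 30.8, 34.2 and 33.2 CPM in LM1 Nfib KO. In LM9 they were 96.4, 149 and 169 CPM, and in LM9 Nfib KO 33.6, 33.2 and 31.5 CPM. No KO library reached the lowest parental one, and LM9 replicate 1 was again at the LM1 level. The log2 fold change was -1.54 in LM1 (SE 0.17, adjusted p = 5.59e-06). In LM9 it was -2.03 (SE 0.17, adjusted p = 4.26e-07), or -2.27 without LM9 replicate 1. How reads were shared between the full-length and the soluble form of Flt1 cannot be read from counts per gene.

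Per kilobase, Kdr made up 92.8% of the summed level of the 2 kinase genes in each KO group, and 0.0528% and 0.0174% in LM1 and LM9. The summed level of Kdr and Flt1 was 7.03 ± 0.330 in LM1 and 33.7 ± 0.282 in LM1 Nfib KO, and 10.2 ± 2.78 in LM9 and 33.9 ± 0.619 in LM9 Nfib KO (SD, n = 3). The level of Flt1 alone was 7.03 and 10.2 in the parental groups and 2.42 and 2.43 in the KO groups, and that of Kdr was 31.3 and 31.4 in the KO groups, so the rise of Kdr exceeded the fall of Flt1. In the 2 LM9 libraries other than replicate 1 the level of Flt1, and of the sum, was 11.8, with no Kdr count.

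Nrp1, on chromosome 8 at 128358604 to 128503363 of the plus strand, encodes a co-receptor for VEGFA that also binds SEMA3A. It had 7.73, 9.81 and 9.0 CPM in LM1 and 46.9, 47.0 and 44.4 CPM in LM1 Nfib KO. In LM9 it had 9.04, 0.484 and 1.02 CPM, and in LM9 Nfib KO 48.1, 44.7 and 45.2 CPM. Every KO library was above every parental one, and LM9 replicates 2 and 3 (12 and 26 counts) were the lowest of all. The log2 fold change was 2.38 in LM1 (SE 0.37, adjusted p = 1.00e-04). In LM9 it was 4.68 (SE 0.59, adjusted p = 1.64e-05), and 5.99 without LM9 replicate 1 (SE 0.31, adjusted p = 5.10e-12). DESeq2 gave no adjusted p for Nrp1.

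Nrp2, on chromosome 1 at 62703285 to 62818695 of the plus strand, encodes the co-receptor for VEGFC and for SEMA3F. It was the most abundant receptor gene in each group. With all 12 libraries it had the smallest change of the 7 in both lines, whereas without LM9 replicate 1 Vegfc had the smallest in LM9. Its values were 639, 643 and 657 CPM in LM1 and 413, 406 and 410 CPM in LM1 Nfib KO. In LM9 they were 651, 532 and 612 CPM, and in LM9 Nfib KO 410, 406 and 408 CPM. The parental range began above the KO range in both lines. Nrp2 fell by 0.66 on the log2 scale in LM1 (SE 0.07, adjusted p = 2.59e-06) and by 0.55 in LM9 (SE 0.07, adjusted p = 1.27e-05), or by 0.48 without LM9 replicate 1. With library totals in place of TMM factors the LM9 value was -0.19 and did not pass (adjusted p = 0.0729). That scaling moved the median of all genes from 0.13 to 0.49 in LM9.

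Nrp1 and Nrp2 thus moved in opposite directions, as Kdr and Flt1 did. Nrp1 made up 1.63% ± 0.185 of the summed neuropilin level per kilobase in LM1 and 11.99% ± 0.346 in LM1 Nfib KO, a difference of 10.4 percentage points. In LM9 it made up 0.655% ± 0.866 and in LM9 Nfib KO 12.01% ± 0.375, a difference of 11.4 points. The LM9 mean rested on replicate 1, since the shares were 1.65%, 0.110% and 0.202%, and without that library it was 0.156% (n = 2) and the difference 11.9 points. With all libraries, both differences had an exact two-sided permutation p of 0.1, the smallest possible with 3 against 3. The level of all 4 receptor genes together was 62.5 ± 1.07 in LM1 and 61.1 ± 4.48 in LM9, against 73.0 ± 0.368 and 73.0 ± 0.619 in their KO groups. Nrp2 supplied 87.3% and 82.6% of it in LM1 and LM9, whereas in their KO groups Nrp2 supplied 47.4% and 47.2% and Kdr 42.8% and 43.0%. Without LM9 replicate 1 the LM9 receptor level was 60.1 and the part of Nrp2 80.3%.

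The order of the levels per kilobase of exon union changed with it. In LM1, Vegfa was highest at 122 CPM per kilobase, followed by Nrp2 at 54.6 and Vegfb at 54.1, which did not differ beyond their spread (SD 0.781 and 2.86), then Vegfc at 23.6, Flt1 at 7.03, Nrp1 at 0.904 and Kdr at the floor. In LM9 the order was Vegfa at 180, Vegfb at 61.0, Nrp2 at 50.5, Vegfc at 12.9, Flt1 at 10.2, Nrp1 at 0.359 and Kdr at the floor. Vegfc and Flt1 overlapped there, because Vegfc was 24.0 in replicate 1 and 7.42 and 7.26 in the others. Without replicate 1 the 2 genes changed places, with Flt1 at 11.8 and Vegfc at 7.34, and Nrp1 was at 0.0770. In LM1 Nfib KO the order was Nrp2 at 34.6, Kdr at 31.3, Vegfa at 17.4, Vegfb at 15.97, Vegfc at 6.49, Nrp1 at 4.71 and Flt1 at 2.42. LM9 Nfib KO had the same order, with Nrp2 at 34.4, Kdr at 31.4, Vegfa at 17.4, Vegfb at 14.1, Vegfc at 6.61, Nrp1 at 4.70 and Flt1 at 2.43, and no neighbours overlapped between libraries in either KO group. Receptor genes were thus the highest of the 7 in KO tumourspheres and a ligand gene was the highest in parental ones. Some other places depend on the length used. Exon union and longest transcript were 11842 and 6723 bases for Nrp2, and 1605 and 1281 for Vegfb. They were 9785 and 3645 for Nrp1, 13504 and 6895 for Flt1, and 2449 in both cases for Vegfc. With the longest transcript Nrp2 lies above Vegfb in both parental lines, Flt1 above Vegfc in LM9, and Nrp1 above Vegfc in both KO groups.

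**Figure D3:**
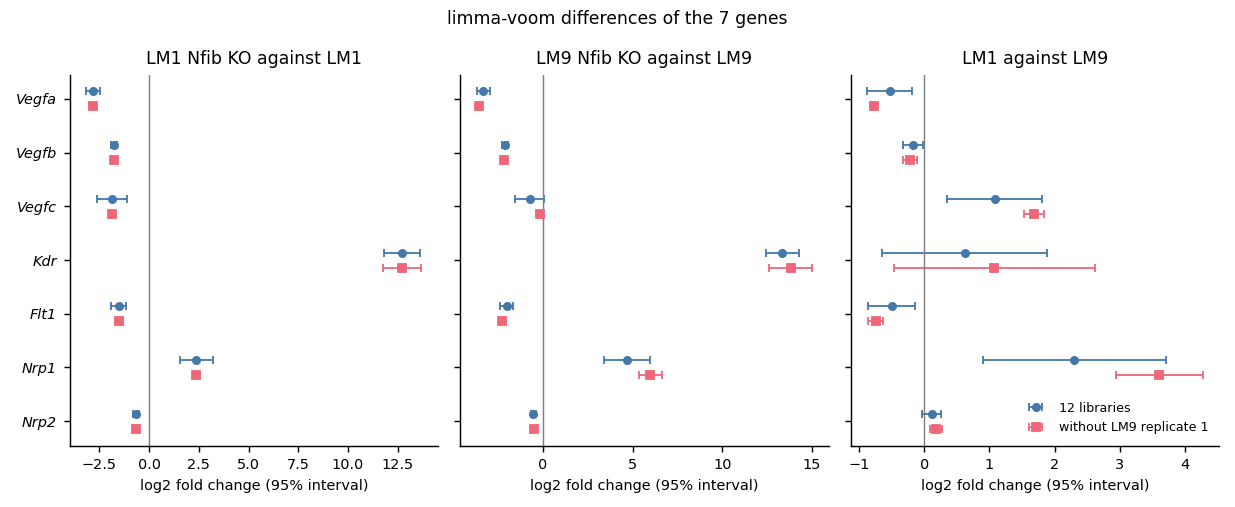
Log2 fold changes of the 7 genes from limma-voom in 3 comparisons, with 95% intervals; circles use all 12 libraries and squares leave out LM9 replicate 1. Kdr and Nrp1 lay right of 0 and the other genes left of 0 in both KO comparisons, except that the interval of Vegfc in LM9 reached 0, and the intervals between LM1 and LM9 narrowed for 6 genes without that library.

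The difference between the lines in the size of the KO change did not pass for any of the 7 genes in limma-voom with all 12 libraries (0 of 7, with 0% of all genes passing, and 0 of 7 with edgeR, 0.00550% of all genes, and 0 of the 6 with an adjusted p in DESeq2, 0.429%). At an unadjusted p under 0.05 in limma-voom there were 4 of the 7, and 4495 of all 18176 genes. The absence of calls depended on LM9 replicate 1 and on how the libraries were weighted. With all 12 libraries and sample quality weights in limma-voom 6 of the 7 passed, where 58.1% of all genes did. Without LM9 replicate 1, and with no such weights, 6 of the 7 passed, where 57.2% of all genes did. In the fit without that library the LM1 change minus the LM9 change was 0.78 for Vegfa (SE 0.04, adjusted p = 2.72e-10), -1.71 for Vegfc (SE 0.10, adjusted p = 3.77e-10) and -3.60 for Nrp1 (SE 0.32, adjusted p = 5.20e-08). The differences of Vegfb, Flt1 and Nrp2 were 0.40, 0.74 and -0.17, and Kdr did not pass (adjusted p = 0.222). In that fit the KO groups differed by 0.005 for Vegfa, -0.03 for Vegfc, 0.004 for Nrp1, -0.003 for Flt1, 0.006 for Nrp2 and 0.18 for Vegfb. Except in part for Vegfb, these differences thus restate those between the parental groups, given next, with the sign turned.

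The comparison of the parental lines also depended on that library, and on the tool, scaling, filter and weights. With all 12 libraries, 0 of the 7 genes passed between LM1 and LM9, where 0.00550% of all genes passed, and the lowest adjusted p was 0.0543. At an unadjusted p under 0.05 in limma-voom there were 5 of the 7, and 8661 of all 18176 genes. DESeq2 called 3 of 6 (33.9% of all genes) and edgeR called 0 (0.00550%). On the same 12 libraries limma-voom called 4 of 7 with library totals in place of TMM factors (28.8% of all genes), 4 of 7 among genes with a mean of at least 5 CPM (39.4%) and 6 of 7 with sample quality weights (63.8%). Without LM9 replicate 1, 6 of the 7 passed, where 65.7% of all genes did. Vegfa (log2 difference LM1 minus LM9 -0.77, SE 0.03), Flt1 (-0.74, SE 0.05) and Vegfb (-0.22, SE 0.05) were then lower in LM1, and Nrp1 (3.61, SE 0.31), Vegfc (1.68, SE 0.07) and Nrp2 (0.18, SE 0.04) were higher, with adjusted p from 3.71e-13 to 0.00132. Kdr was at 0 to 2 counts in all 6 parental libraries.

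Between the KO groups no gene of the 7 passed (0 of 7 in limma-voom and edgeR and 0 of 6 in DESeq2, with 0% of all genes passing). The log2 difference of Vegfb was 0.18 (SE 0.08, unadjusted p = 0.0405, adjusted p = 1.00), the only one of the 7 at an unadjusted p under 0.05, where 178 of all 18176 genes were. The other 6 genes differed by -0.03 to 0.01, with 95% intervals that reached from -0.83 to 0.78 for Vegfc, the widest, and from -0.14 to 0.15 for Nrp2, the narrowest.

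Genes around the ligands and receptors were taken from 10 pathway lists with 93 tested genes outside the 7. Averaged over both lines, 36 were higher and 47 lower in the KO, or 89.2%, where 86.8% of all genes passed. The share was therefore near the background. With an absolute log2 fold change above 1 also required, 53 of the 93 passed, where 56.7% of all genes did. Their median log2 fold change was -0.17 against 0.11 for all genes, and their median absolute log2 fold change was 1.55 against 1.20. Without LM9 replicate 1, 88 of them passed, where 91.9% of all genes did, their median was -0.18, and the 18 genes that the naming rule selected had the same direction and call in LM9 as with it. The averaged log2 fold changes of these genes moved by at most 0.42 without that library, except that of Angpt4, which moved by 0.85.

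Among the class 3 semaphorins, most of which bind neuropilins, 1 of 5 rose and 4 fell (median -2.18). Sema3f, the NRP2 ligand, had 475 and 453 CPM in the parental groups of LM1 and LM9, and 1.47 and 1.36 CPM in the KO groups (averaged log2 fold change -8.35, SE 0.11, adjusted p = 1.54e-13). Sema3c rose from 22.7 and 46.7 CPM to 122 and 126 CPM (2.01, SE 0.20, adjusted p = 1.44e-06). Sema3a, the NRP1 ligand, was at 1.55 and 1.91 CPM in the parental groups and 0.434 and 0.50 CPM in the KO groups. Of the 5 plexins that signal with neuropilins, 2 rose, 2 fell and Plxna1 did not pass (0.22, adjusted p = 0.0914), although it did without LM9 replicate 1 (0.34, adjusted p = 2.12e-06). Plxna2 had 52.5 and 53.0 CPM in the KO groups and 4 pooled counts in each parental group, a ratio of 1163 in LM1 (exact 95% counting interval 454 to 4270) and 1057 in LM9 (413 to 3882). Plxna3 fell (-1.80, SE 0.10, adjusted p = 9.80e-09).

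The list of genes that control Vegfa mRNA had 2 of 11 higher and 9 lower. Epas1, which encodes HIF-2 alpha, rose from 0.121 and 0.225 CPM to 16.4 and 15.1 CPM (6.52, SE 0.21, adjusted p = 6.10e-11). Hif1a, which encodes HIF-1 alpha, was at 555 and 469 CPM in the parental groups and 172 and 179 CPM in the KO groups (-1.53, SE 0.07, adjusted p = 6.74e-10). Arnt, their shared partner, fell by about the same amount (-1.52, SE 0.05, adjusted p = 4.72e-11). Zfp36l1, an RNA-binding protein that promotes decay of Vegfa mRNA, went from 350 and 236 CPM to 15.2 and 15.3 CPM (-4.20, SE 0.18, adjusted p = 6.02e-10). Arnt and Epas1 follow the rule for named genes, whereas Hif1a, Zfp36l1 and Sema3a were named after their values were seen. Of the 4 genes that process VEGFC or other ligands, 3 rose, among them Pcsk7, a proprotein convertase (1.91, SE 0.06, adjusted p = 3.66e-11), and Furin did not pass (0.16, adjusted p = 0.302), although it did without LM9 replicate 1 (0.33, adjusted p = 5.64e-08).

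Signalling genes downstream of KDR were split, with 16 of 41 higher, 19 lower and 6 that did not pass (median -0.15). These counts were 16 higher and 22 lower without LM9 replicate 1. Prkca, a protein kinase C gene, rose from 26.0 and 22.1 CPM to 132 CPM in each KO group (2.46, SE 0.04, adjusted p = 6.61e-13). Of 9 genes of receptor traffic and co-receptors, 3 rose and 6 fell. Sdc2, a heparan sulphate proteoglycan, rose (0.83, SE 0.04, adjusted p = 1.20e-09), and Itgb3, an integrin subunit that associates with KDR, fell (-4.87, SE 0.09, adjusted p = 7.17e-13). Of 7 genes that VEGF induces in endothelium, 4 rose and 3 fell. Rcan1, a calcineurin inhibitor, rose (2.66, SE 0.08, adjusted p = 3.40e-11), whereas Dll4, a Notch ligand, had 11.5 and 6.95 CPM in LM1 and LM9 (4.52 in LM9 without replicate 1) and 3 pooled counts in each KO group.

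In the 2 related systems the changes were also in both directions. Of the angiopoietins, ligands of the endothelial receptor TEK, Angpt4 rose from 1.90 and 0.742 CPM to 391 and 378 CPM (9.19, SE 0.50, adjusted p = 5.51e-09) and Angpt1 fell from 32.0 and 13.5 CPM to 0.362 and 0.376 CPM (-5.61, SE 0.66, adjusted p = 6.94e-06). LM9 replicate 1 carried much of the LM9 level of both. Without it, Angpt4 was at 0.118 CPM and Angpt1 at 5.69 CPM in LM9, and the LM9 log2 fold change went from 10.67 to 12.35 for Angpt4 and from -4.79 to -3.95 for Angpt1. Of 7 angiogenesis inhibitor genes 4 rose, 2 fell and Adamts1 did not pass (median 1.66). Thbs2, thrombospondin 2, rose from 3.21 and 1.56 CPM (0.935 in LM9 without replicate 1) to 172 and 171 CPM (6.33, SE 0.17, adjusted p = 1.28e-11). Col18a1, the source of endostatin, fell from 898 and 962 CPM to 20.5 and 20.4 CPM (-5.50, SE 0.05, adjusted p = 2.60e-14).

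**Figure D4:**
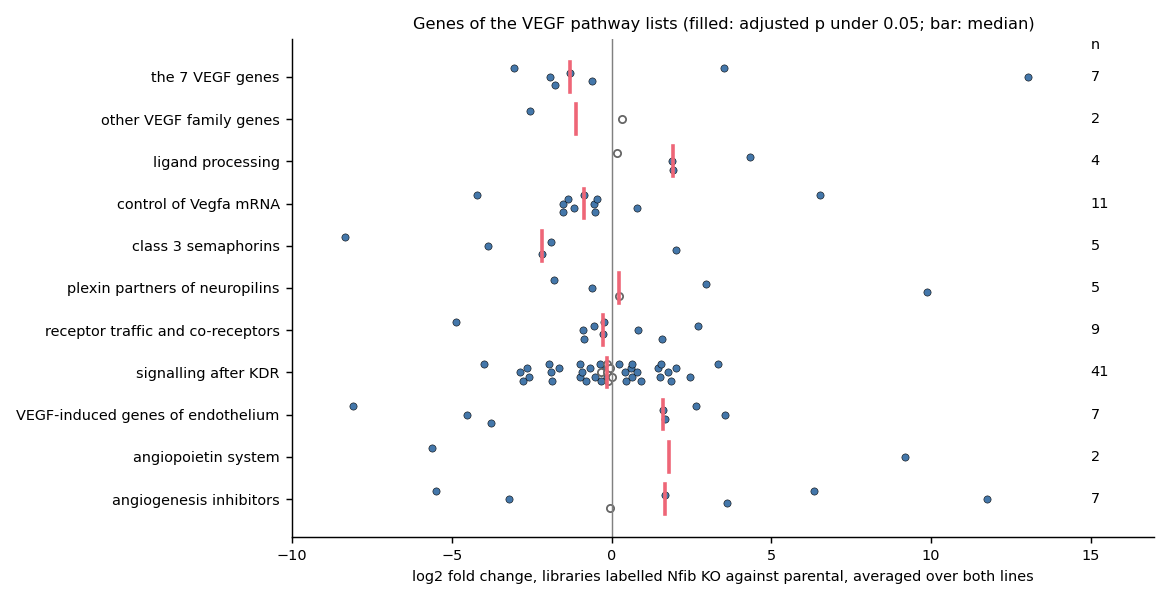
Log2 fold change of each tested gene of the VEGF lists in the KO libraries against the parental ones, averaged over both lines, with 1 row per list; filled points passed the test, open points did not, the bar is the list's median and n is the number of genes. Every list with more than 2 genes except ligand processing had genes that passed on both sides of 0, and Kdr at 13.03 lay furthest from 0 of all points.

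Kdr is also a defining gene of endothelium, so markers of other cell types are given beside it. Of 18 endothelial markers 6 were among the genes analysed. Averaged over both lines 4 rose, 1 fell and 1 did not pass, and in LM9 these counts were 3, 1 and 2. Of all genes, 46.3% rose and 40.5% fell in the average, 43.1% and 38.1% in LM1, and 44.3% and 38.0% in LM9. With so many genes called, these marker counts and those below say little by themselves. Their summed level was 20.2 to 25.1 CPM in LM1 and 22.3 to 38.9 CPM in LM9, against 103 to 105 and 98.9 to 104 CPM in their KO groups. Cdh5, the endothelial cadherin, had 0 to 1 counts in the parental libraries and 73.3 and 69.5 CPM in the KO groups, and Vwf had 18.0 and 17.6 CPM there. Esam was at 1.55 and 1.72 CPM in the KO groups and 0.112 and 0.138 CPM in the parental ones. Plvap rose in LM1 from 4.25 to 9.35 CPM, did not pass in LM9 (0.03, adjusted p = 0.932), and was lower in LM9 Nfib KO without LM9 replicate 1 (-0.53, adjusted p = 2.56e-05). Egfl7 went the other way, from 16.97 and 20.4 CPM to 2.08 and 2.23 CPM (averaged log2 fold change -3.11, adjusted p = 5.78e-10). Pecam1 was under 1 CPM in every group mean (1.24 CPM in LM9 without replicate 1) and did not pass in either line, although without LM9 replicate 1 it was lower in LM9 Nfib KO (-1.89, adjusted p = 1.66e-05). Emcn, Cldn5, Erg and 9 more were looked up and were not among the 18278 genes with counts. The same holds for the markers of the other cell types that were not analysed. Of 10 fibroblast markers 8 were analysed, with a sum of 481 to 518 CPM in LM1 and 174 to 485 CPM in LM9, against 1369 to 1403 and 1312 to 1370 CPM in their KO groups, led by Col1a1 (6.10 CPM in LM1 and 958 CPM in LM1 Nfib KO). In each line 6 of the 8 rose, and the others, Postn and Dcn, fell in LM1, from 193 to 1.86 CPM and from 90.7 to 11.5 CPM. In LM9 neither passed, and replicate 1 held most of their counts. Without it Postn was higher in LM9 Nfib KO (3.13, adjusted p = 1.19e-05) and Dcn lower (-0.32, adjusted p = 0.00114). Of 12 mammary epithelial markers 8 were analysed, and their sum was 765 to 813 CPM in LM1 and 813 to 1331 CPM in LM9, against 33.5 to 36.1 CPM in all 6 KO libraries. The epithelial genes Krt8, Krt18 and Cdh1 had 0 to 7 counts in the KO libraries, so the labelled mammary cancer cells lacked these defining markers there. Averaged over both lines 6 of the 8 fell, and Krt14 and Esr1 rose. Of those that fell, Trp63 did not pass in LM9 (-1.49, adjusted p = 0.412), where without replicate 1 its value was 1.01 (adjusted p = 0.168), and its averaged value moved from -3.64 to -2.39. Krt14, a basal keratin, went from 0.0584 and 0.145 CPM to 6.79 and 6.51 CPM, and Esr1, the oestrogen receptor, from 9.72 and 5.32 CPM (3.28 in LM9 without replicate 1) to 26.0 and 26.9 CPM. Of 10 macrophage markers 4 were analysed, with 505 to 517 CPM in LM1 and 519 to 593 CPM in LM9, against 131 to 136 and 128 to 138 CPM in their KO groups. Csf1r among them had 0 to 1 counts in parental libraries and 12.4 and 12.3 CPM in the KO groups, while Cd68, the most abundant of them, had 459 and 523 CPM in the parental groups and 101 and 98.7 CPM in the KO groups. In bulk RNA, fewer cells of a type and less RNA per cell cannot be told apart, and the part of these markers in the changes of the 7 genes was not tested.

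The genes whose pattern over the 12 libraries was most like each member were found by the root mean square difference of log2 CPM, each gene centred on its own mean. For Vegfa these were Npc2 (0.0491), B4galt3 (0.0546) and Snrnp48 (0.0895). For Vegfb they were Mpp2, Rap1gap and Prpf40b (0.0600 to 0.0745), and for Vegfc Tirap, Adarb1 and Cyp4v3 (0.102 to 0.107). The values of Kdr cannot be set beside these, because at 0 to 2 counts in the parental libraries small differences in count move log2 CPM widely. Its nearest gene was Pdpn, which encodes podoplanin, at 0.691 with 416 and 423 CPM in the KO groups and 0.104 and 0.0828 CPM in the parental ones, followed by Moxd1 and Papss2, which had 0 CPM in each parental library. For Flt1 the nearest were Lig1, St3gal1 and Gnas (0.0723 to 0.0795), for Nrp1 Tyw3, Trim2 and Zfp933 (0.222 to 0.299) and for Nrp2 Ralgapb, Pip4k2b and Jak1 (0.0339 to 0.0379). Among the 7 genes themselves Vegfb and Flt1 were the most alike (0.225). The libraries fall into clusters of parental and KO samples, so these values describe likeness between group levels more than between single libraries.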

How the data were processed

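RNA-seq was analysed from 12 tumoursphere libraries. Per the study's methods the authors made stranded mRNA libraries, sequenced single-end reads, aligned them with STAR to mm10 and counted read 5′ ends over the exon union of each gene with QuasR; versions and the annotation release are not given in the sources used here. The deposited files held unnormalised counts, 1 file per library. Every listed gene had at least 8 counts in its third-highest library. GENCODE M21 named 18268 of the 18278 genes.

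Counts were fitted with limma-voom (limma 3.58.1, R 4.3.3), the framework named by the study, with TMM factors and filterByExpr (count minimum 10, total minimum 15; 18176 genes kept, all 7 members among them), 1 mean per group, and Benjamini-Hochberg adjustment over all genes at 0.05. Alternatives used edgeR 4.0.16 quasi-likelihood, DESeq2 1.42.0, other scalings, filters, weights, a replicate block, omission of each library, and a size threshold of 1 on the log2 scale. The floor was 3 counts, or 0.0730 to 0.121 CPM per library. The procedure was tested on simulated data. The study's tumoursphere methods speak of technical triplicates, and nothing states that replicates came from separate cultures, so p-values may measure technical spread. Genes overlapping Nrp1 and Nrp2 were not among the genes in the files. Whether strand was used in counting was not stated.

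Named genes were the 7 members, the other VEGF family genes, Nfib, the gene of lowest adjusted p in each direction in each pathway list, and the 3 most similar genes per member; 1 gene that the rule selected is not reported here. Members and lists were chosen with earlier results of these data known.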

Additional observations from a re-analysis of the deposited data

How the results depend on the processing

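The directions of the KO changes of the 7 genes held under every alternative run. The counts of members called in LM1 (6 to 7), LM9 (5 to 7) and their average (6 to 7) stayed within 1.5 times of the reported values. DESeq2 gave no adjusted p for Nrp1, so its counts cover 6 genes. Depth limits Kdr in parental libraries, at 0 to 2 counts, and Vegfd, at 14 to 62 counts. Comparisons between the lines depended on LM9 replicate 1 and on other settings: leaving out 1 library gave 0 to 6 members for the difference between lines and 0 to 6 for LM1 against LM9, and the 6 in both came without LM9 replicate 1. With sample quality weights 6 members were called in each (58.1% and 63.8% of all genes). LM1 against LM9 gave 3 with DESeq2 (33.9% of all genes), 4 with library totals (28.8%) and 4 with a mean of at least 5 CPM (39.4%); the cause was not tested. Of the 93 pathway genes 53 passed with an absolute log2 fold change above 1 (56.7% of all genes), which leaves fewer calls by construction, and 81 to 88 when 1 library was left out. LM9 Nfib KO against LM9 gave 6 to 7 members, LM1 Nfib KO against LM1 7, their average 7 and the KO groups 0 in those fits. The Vegfd value in LM9 reversed to 0.0738 with library totals.

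The Vegfa share difference in LM1 was -13.7 points without a length correction. The Nrp1 share difference was 14.7 (LM1) and 16.2 points (LM9) with the longest transcript as length, and 8.77 and 9.59 points with none, which follows from the unequal lengths used. Leaving out 1 library gave -16.4 to -15.5 and -27.0 to -19.8 points for Vegfa and 10.2 to 10.5 and 11.1 to 11.9 points for Nrp1 in LM1 and LM9.

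Replicates with the same number did not deviate together (r from -0.05 to 0.03; 2 of 12 libraries correlated best with their own number), so the samples share only a number. With the replicate block 7, 6, 7, 0, 0 and 0 members were called in LM1, LM9, the average, the difference between lines, LM1 against LM9 and the KO groups, where 80.3%, 81.6%, 86.3%, 0%, 0% and 0% of all genes passed, and 83 pathway genes in the average.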
